A study of Mus musculus with 80 samples.

Results

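The livers of mice given PFESA-BP2 at 6.0 mg/kg-day were compared with the livers of mice given 3.0 mg/kg-day, the 2 highest doses of the study. PFESA-BP2, known as Nafion byproduct 2 as well, belongs to the perfluoroalkyl ether sulfonic acids. The comparison takes all mice labelled with either dose, 4 per dose, which are 8 of the 20 mice in the series, and every gene row of the deposited table. Both groups were female Balb-C mice of 10 to 12 weeks, treated daily in the afternoon by gavage on 7 days, so that dose was the only labelled difference. The other mice received 0 (the controls), 0.03 or 0.3 mg/kg-day with the same strain, sex and age, and they enter here as part of the shared fit and as reference levels. The sources disagree on what the controls were given: their titles name DMSO and the design text names deionized water. Each mouse gave 1 library, sequenced over 4 lanes. The mice were individual animals and none were pooled.

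Several liver receptors that sense foreign compounds and fatty acids are known to respond to perfluorinated chemicals. CAR and PXR switch on cytochrome P450 enzymes and conjugating enzymes, PPARA switches on fatty acid oxidation, and NRF2 switches on glutathione and antioxidant genes. The aryl hydrocarbon receptor, AhR, drives Cyp1a1. Growth hormone acts on the liver through STAT5 and sets many of the differences between female and male liver, while Wnt signalling and the position along the lobule set which hepatocytes express which enzymes. Adult hepatocytes are mostly quiescent, and activators of CAR and PPARA are known to bring rodent hepatocytes into division.

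Levels are given in CPM, counts scaled to a common library total (TMM), in the order of libraries 17, 18, 19 and 20 for 3.0 mg/kg-day and 21, 22, 23 and 24 for 6.0 mg/kg-day. The words rose and fell are kept for genes with an adjusted p under 0.05 at 6.0 against 3.0 mg/kg-day, from edgeR's quasi-likelihood fit of all 20 mice. Changes are log2 fold changes, 6.0 minus 3.0, with a standard error (SE). The 8 libraries held 16747263 to 20398977 counts. In whole liver, fewer cells of a type and less RNA per cell cannot be told apart.

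Of 15197 genes tested, 318 passed (2.09%). At 6.0 mg/kg-day 157 genes were higher (1.03%) and 161 were lower (1.06%), and 90 of the rises and 45 of the falls were 2-fold or more. The shares of 1.03% and 1.06% are the reference for the counts in the gene lists below. The median change over all genes tested was 0.0045. At an unadjusted p under 0.05, 1172 genes were higher (7.71%) and 1134 lower (7.46%), 2306 in all (15.2%). The 4 mice at 6.0 all lay above the 4 at 3.0 mg/kg-day in 495 genes (3.26%) and all below in 487 (3.2%). The genes that rose included glutathione transferases, omega-hydroxylases of fatty acids and genes of mitosis. The genes that fell included growth hormone dependent and female-biased genes, secreted proteins and membrane transporters.

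The mice within a dose were not alike. Library 22 was the most extreme of the 6.0 mice in 86 of the 157 rises and 99 of the 161 falls. Among the 3.0 mice, library 20 lay nearest to the 6.0 mice in 76 rises and 67 falls, library 19 in 50 and 52, library 18 in 22 and 26, and library 17 in 9 and 16. Libraries 3, 11, 15, 19 and 23, of which each dose group held 1, stood apart from the rest on the leading axis of within-group variation. Without library 17 the number of genes passing was 110, without library 18 it was 133, without library 22 it was 126 and without library 23 it was 969. A term for the 5 libraries that stood apart gave 1400 genes, and a fit that left them out gave 1476. The 5 were chosen after seeing these data and hold the highest values on that axis. Larger counts in these 2 fits could therefore follow from the choice alone. Fitted on the 8 libraries alone, edgeR passed 0 genes, with 1575 at an unadjusted p under 0.05, limma-voom passed 2 and DESeq2 passed 284. All 318 genes kept their direction in each of these fits in which they were tested, and 98 of them passed in all 8 fits that each left out 1 mouse.

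**Figure D1:**
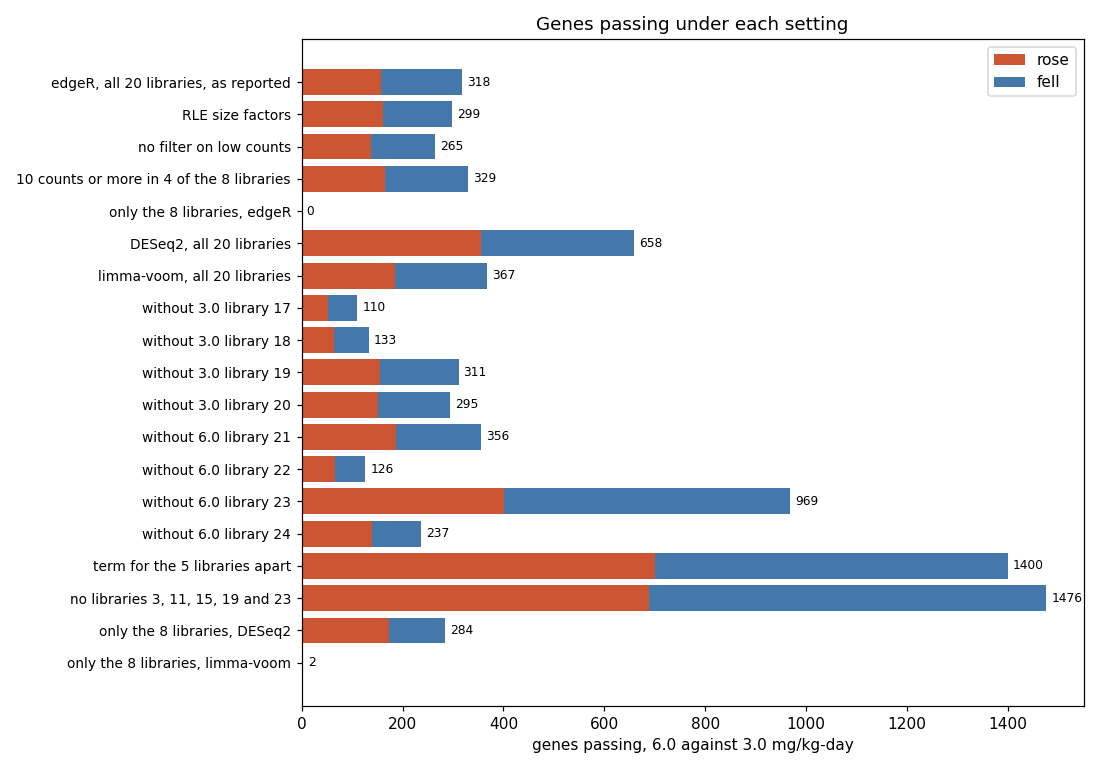
Number of genes passing at 6.0 against 3.0 mg/kg-day (x axis) under each way of fitting the counts (y axis), split into genes that rose and genes that fell. The number ran from 0 with edgeR on the 8 libraries alone to 1476 without libraries 3, 11, 15, 19 and 23, against 318 in the fit used in the text.

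Glutathione transferases, which join glutathione to reactive compounds, were higher at 6.0 than at 3.0 mg/kg-day across their alpha, mu and pi classes. Of 36 tested genes of phase II conjugation, 9 rose and 0 fell, with a median change of 0.40 beside 0.0045 for all genes. The 9 were Gsta1, Gsta2, Gstm1, Gstm2, Gstm3, Gstm4, Gstp1, the glucuronosyltransferase Ugt1a9 and the sulfotransferase Sult2a7. Their changes ran from 0.96 to 2.04.

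Gstm3, a mu-class transferase, stood at 100.0, 152, 189 and 317 CPM at 3.0 and 398, 599, 503 and 581 CPM at 6.0 mg/kg-day (log2 fold change 1.46, SE 0.28, adjusted p = 0.00722). Every 6.0 mouse lay above every 3.0 mouse, with library 20 nearest. Gsta2, an alpha-class transferase, stood at 40.0, 38.9, 47.9 and 64.7 CPM at 3.0 and 136, 203, 90.4 and 109.8 CPM at 6.0 mg/kg-day (log2 fold change 1.49, SE 0.23, adjusted p = 0.00286), and library 22 was again the highest. Gstm2, another mu-class gene, stood at 165, 212, 241 and 292 CPM at 3.0 and 491, 788, 458 and 587 CPM at 6.0 mg/kg-day (log2 fold change 1.35, SE 0.19, adjusted p = 0.00107). The pi-class gene Gstp1 stood at 75.2, 69.9, 94.0 and 93.6 CPM at 3.0 and 137, 230.1, 186 and 224 CPM at 6.0 mg/kg-day (log2 fold change 1.22, SE 0.17, adjusted p = 0.00091). For Gstm2 and Gstp1, too, the dose groups did not overlap.

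Gm3776, a gene known only by a number, stood at 9.65, 21.5, 13.6 and 32.1 CPM at 3.0 and 107, 219, 68.4 and 104 CPM at 6.0 mg/kg-day (log2 fold change 2.70, adjusted p = 0.00722), with no overlap between doses. The unnamed gene AC138292.1 rose by 1.36 (adjusted p = 0.0148) and Gstp-ps, a pseudogene of the pi class, by 1.26 (adjusted p = 0.00357). Members of the glutathione transferase clusters resemble each other in sequence, so counts could be split between neighbours, and the division of a rise among them is uncertain. Gsta1 and Gsta2 lie on chromosome 9 and the Gstm genes on chromosome 3 (GRCm38, GENCODE M21).

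Ugdh, which makes the UDP-glucuronic acid used in glucuronidation, stood at 223, 219, 288 and 386 CPM at 3.0 and 577, 917, 723 and 534 CPM at 6.0 mg/kg-day (log2 fold change 1.30, SE 0.18, adjusted p = 0.00117), with all 6.0 mice above all 3.0 mice. Ugt1a9 rose by 0.96 (adjusted p = 0.00515), and Sult2a7, whose groups overlapped, by 0.99 (adjusted p = 0.0329). Reads of Ugt1a9 can be shared with the other genes of the Ugt1a locus, whose transcripts have their last exons in common.

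Of 23 tested NRF2 targets 5 rose and 0 fell, with a median change of 0.56. They were Ugdh, Srxn1, Gsr, Nqo1 and Gpx2. Srxn1, which repairs oxidised peroxiredoxins, stood at 44.2, 42.6, 68.0 and 58.9 CPM at 3.0 and 76.3, 146, 156 and 93.0 CPM at 6.0 mg/kg-day (log2 fold change 1.14, SE 0.20, adjusted p = 0.00515). Nqo1, a quinone reductase and a common marker of NRF2 activity, stood at 8.14, 8.71, 7.49 and 11.3 CPM at 3.0 and 15.1, 31.5, 11.8 and 17.3 CPM at 6.0 mg/kg-day (log2 fold change 1.09, SE 0.26, adjusted p = 0.0317), with library 23 only just above library 20. Gsr, which regenerates reduced glutathione, rose by 0.57 (adjusted p = 0.0136) with overlapping groups. Gpx2, a glutathione peroxidase, was low in all mice, at 0.270, 0.0592, 0.260 and 0.280 CPM at 3.0 and 0.995, 2.47, 1.67 and 1.05 CPM at 6.0 mg/kg-day (adjusted p = 0.00776). Without library 22 the conjugation list had 7 rises and the NRF2 list 3. With the term for the 5 libraries apart they had 16 and 12, with 1 and 0 falls. Gsta1, Gstm1, Sult2a7, AC138292.1, Nqo1 and Gsr missed the threshold in 1 or more of the 8 fits that each left out 1 mouse, with adjusted p of up to 0.175 without library 22, 0.13 without library 17, 0.12 without library 18, 0.0795 without library 19, 0.0552 without library 23, 0.0539 without library 20 and 0.0517 without library 24.

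**Figure D2:**
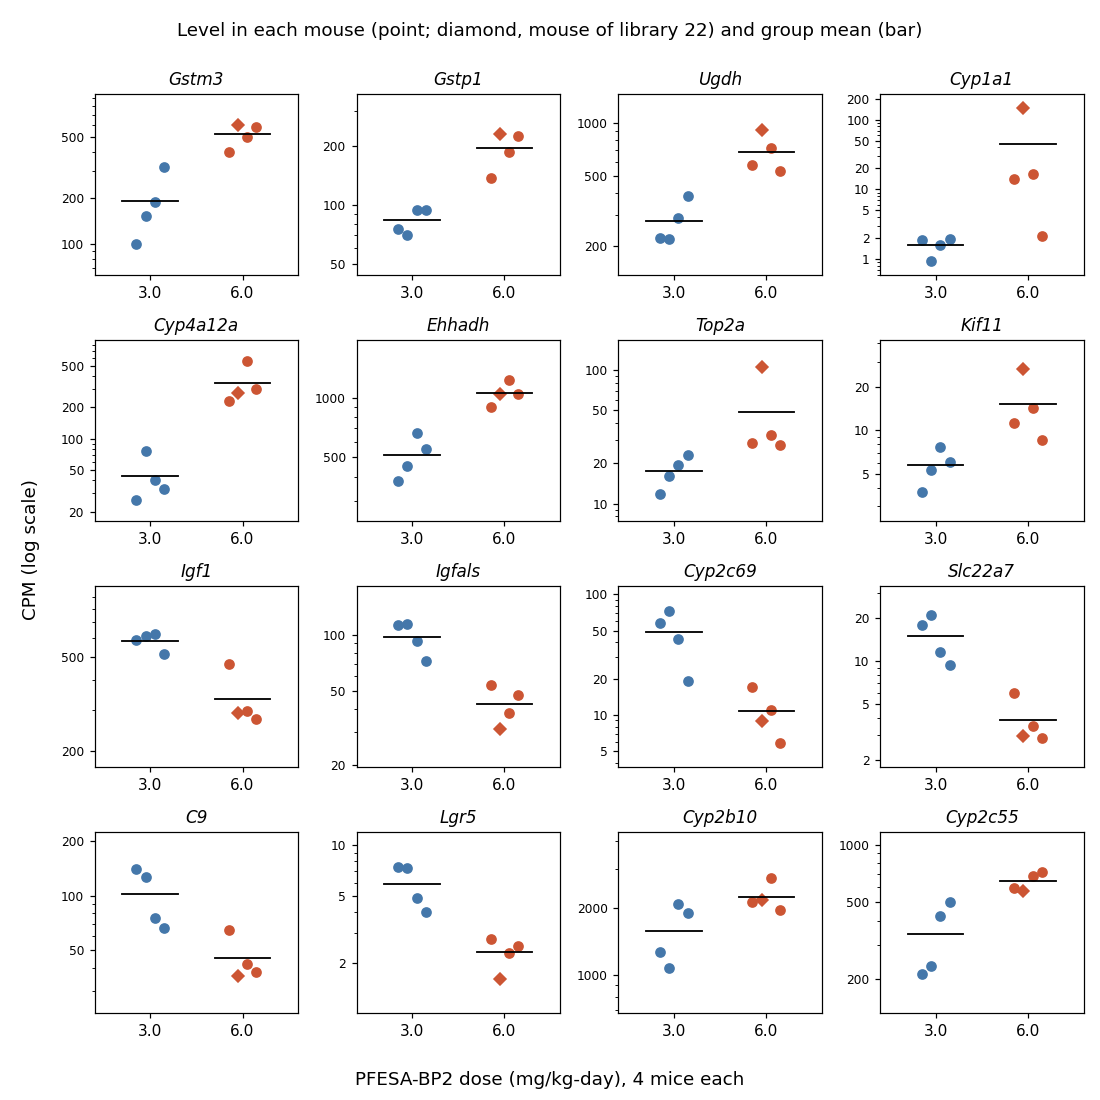
Level of 16 genes in each mouse at 3.0 or at 6.0 mg/kg-day, in CPM on a log axis. Each point is a mouse and the diamond marks library 22. In Gstm3 the 3.0 mice lie between 100.0 and 317 CPM and the 6.0 mice between 398 and 599 CPM, and in Cyp1a1 library 22 lies at 147 CPM with the other 6.0 mice between 2.15 and 16.5 CPM.

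The classic CAR and PXR enzymes Cyp2b10, Cyp2c55 and Cyp3a11 did not pass at 6.0 against 3.0 mg/kg-day. Of 35 tested CAR and PXR targets 2 rose and 1 fell, with a median change of 0.24, or 0.12 without library 18. At an unadjusted p under 0.05, 16 of the 35 were higher and 6 lower, beside 7.71% and 7.46% of all genes. With DESeq2 on all 20 mice 12 of the 35 passed as higher and 3 as lower. Cyp2b10, the standard marker of CAR activity, stood at 1275, 1079.8, 2075 and 1898 CPM at 3.0 and 2128, 2175, 2728 and 1957 CPM at 6.0 mg/kg-day (log2 fold change 0.51, adjusted p = 0.316). The groups overlapped, since libraries 19 and 20 were close to the 6.0 mice and libraries 17 and 18 were lower. Cyp2c55, a P450 induced through CAR and PXR, stood at 212, 234, 425 and 505 CPM at 3.0 and 596, 574, 689.9 and 724 CPM at 6.0 mg/kg-day (log2 fold change 0.91, SE 0.24, adjusted p = 0.0558). Its groups did not overlap, but the change missed the threshold. Cyp3a11, the main PXR-responsive P450, stood at 28280.3, 27916, 53606 and 44210.5 CPM at 3.0 and 72737, 65530.3, 73735 and 45645 CPM at 6.0 mg/kg-day (adjusted p = 0.164), with the same low libraries 17 and 18. Alas1, which catalyses the first step of heme synthesis, differed by 1.11 (adjusted p = 0.0629).

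The 2 members that rose were Akr1b7 and Gadd45b. Akr1b7, an aldo-keto reductase of lipid aldehydes, stood at 14.1, 12.0, 17.6 and 24.1 CPM at 3.0 and 37.2, 54.6, 41.5 and 33.9 CPM at 6.0 mg/kg-day (log2 fold change 1.30, SE 0.23, adjusted p = 0.00515). Gadd45b, a stress-inducible protein known as a partner of CAR, stood at 6.69, 5.09, 6.30 and 10.4 CPM at 3.0 and 15.6, 23.9, 12.2 and 23.8 CPM at 6.0 mg/kg-day (log2 fold change 1.41, SE 0.25, adjusted p = 0.00528). In both genes all 6.0 mice were above all 3.0 mice. Cyp2c39 fell by 0.61 on the log2 scale (adjusted p = 0.0119). With the term for the 5 libraries apart 15 of the 35 targets rose and 4 fell, and without library 22 the counts were again 2 and 1. Among carboxylesterases, reductases and dehydrogenases (54 tested) 3 rose and 3 fell, with a median of 0.15. Besides Akr1b7, the aldehyde oxidase Aox1 rose by 0.72 (adjusted p = 0.0274) and the aldehyde dehydrogenase Aldh3b1 by 1.13 (adjusted p = 0.00706).

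Cyp1a1, the P450 most closely tied to AhR, rose with no overlap between doses (GRCm38, chromosome 9, 57687928 to 57703824). It stood at 1.89, 0.948, 1.61 and 1.96 CPM at 3.0 and 13.9, 147, 16.5 and 2.15 CPM at 6.0 mg/kg-day (log2 fold change 4.80, SE 0.82, adjusted p = 0.0045). Library 22 held most of the difference, libraries 21 and 23 were also well above the 3.0 mice, and library 24 was just above library 20. It had the largest change among genes with a mean of 10 CPM or more and no overlap, a rank that rested on library 22: without that library its change was 2.75 (adjusted p = 0.00761), below the 3.04 of Cyp4a12a. Cyp1a2, its neighbour and the other Cyp1a gene, stood at 458, 386, 280.3 and 427 CPM at 3.0 and 531, 912, 356 and 428 CPM at 6.0 mg/kg-day (adjusted p = 0.405) and its groups overlapped. Of the 6 AhR genes tested 1 rose and 1 fell. Cyp2c39 and Aox1 missed the threshold in 1 or more of the 8 fits that each left out 1 mouse, with adjusted p of up to 0.114 without library 18, 0.113 without library 17 and 0.0973 without library 22.

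To show the gene most closely tied to AhR, the 150 bases before its start are shown, taken from RefSeq at chr9:57697463-57697612 of GRCm38.p6, plus strand. The capitals mark GCGTG, the core letters of an AhR element.
Cyp1a1: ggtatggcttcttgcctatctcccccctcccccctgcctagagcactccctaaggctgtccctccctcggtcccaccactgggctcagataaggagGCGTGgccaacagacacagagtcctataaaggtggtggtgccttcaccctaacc
The letters lie 54 to 50 bases before the start. They occur on either strand in 20.5% of 32851 RefSeq windows of this length, and in 3781 of the 10190 tested genes with a window (37.1%), so a match is common. In GENCODE the gene also has transcripts that start further upstream, so the stretch lies within the gene's span, in an intron of those transcripts and in no exon.

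Fatty acid omega-hydroxylases, which oxidise the far end of fatty acids, rose in part. Of 11 tested omega-oxidation genes 4 rose and 1 fell, with a median change of 0.60. Cyp4a12a, a hydroxylase that is higher in male than in female mouse liver, stood at 26.0, 75.8, 40.5 and 33.2 CPM at 3.0 and 229, 276, 553 and 298 CPM at 6.0 mg/kg-day (log2 fold change 2.95, SE 0.37, adjusted p = 0.000624). Library 23 was highest, and the lowest 6.0 mouse, at 229 CPM, lay far above the highest 3.0 mouse, at 75.8 CPM. Its near-identical neighbour Cyp4a12b, with which reads may be shared, stood at 0.377, 1.24, 2.34 and 0.840 CPM at 3.0 and 5.41, 4.94, 28.9 and 5.89 CPM at 6.0 mg/kg-day (adjusted p = 0.00767). Cyp4a14, a PPARA target, stood at 816, 824, 1415 and 1467 CPM at 3.0 and 2472, 2657, 3333 and 3024 CPM at 6.0 mg/kg-day (log2 fold change 1.34, SE 0.31, adjusted p = 0.0243). Cyp4a31 rose by 1.19 (adjusted p = 0.0082). Cyp4a10, another PPARA target, stood at 609, 685, 1089.8 and 1025 CPM at 3.0 and 1258, 1230.3, 1376 and 1307 CPM at 6.0 mg/kg-day, with groups that did not overlap and a change of 0.60 (adjusted p = 0.0851). The member that fell was Cyp4f14, at 516, 585, 331 and 369 CPM at 3.0 and 309, 149.9, 131 and 231 CPM at 6.0 mg/kg-day (log2 fold change -1.14, SE 0.21, adjusted p = 0.00706).

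Peroxisomal oxidation, which shortens very long fatty acids, had 4 rises and 0 falls among 42 genes tested (median 0.16). Ehhadh, the bifunctional enzyme of the pathway, stood at 382, 451, 661 and 553 CPM at 3.0 and 897, 1040.1, 1221 and 1043 CPM at 6.0 mg/kg-day (log2 fold change 1.04, SE 0.15, adjusted p = 0.00138). The thiolase Acaa1b rose by 0.89 (adjusted p = 0.00601), Pex11a, which promotes peroxisome division, by 0.95 (adjusted p = 0.00559), and the isomerase Eci2 by 0.50 (adjusted p = 0.0286). In all of these the groups did not overlap. Mitochondrial fatty acid oxidation had 3 rises and 0 falls among 26 (median 0.21): the thioesterase Acot2 (1.15, adjusted p = 0.000624), the dienoyl-CoA reductase Decr1 (0.65, adjusted p = 0.00562) and the medium-chain dehydrogenase Acadm (0.39, adjusted p = 0.0456). None of the 7 ketogenesis genes passed, and 0 of them had an unadjusted p under 0.05, beside 15.2% of all genes.

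Of 29 other PPARA targets 4 rose and 0 fell (median 0.28). Vnn1, a pantetheinase and a sensitive PPARA target, stood at 36.5, 35.6, 67.8 and 70.5 CPM at 3.0 and 129, 141, 128 and 142 CPM at 6.0 mg/kg-day (log2 fold change 1.36, SE 0.25, adjusted p = 0.00562). The 6.0 mice were close to each other, and the 3.0 mice fell into a lower pair, libraries 17 and 18, and a higher pair. The lipid droplet protein Cidec, at 1.40, 1.18, 1.30 and 1.18 CPM at 3.0 and 2.98, 4.64, 2.94 and 5.73 CPM at 6.0 mg/kg-day, rose by 1.68 (adjusted p = 0.00286). The thioesterase Acot1 rose by 1.09 (adjusted p = 0.00635) and the fatty acid transporter Cd36 by 0.85 (adjusted p = 0.0401). Among 31 lipogenesis genes 2 rose and 0 fell (median 0.13). Without library 23 there were 2 rises and 2 falls with a median of -0.06, and without the 5 libraries apart 4 rises and 2 falls with a median of -0.06. One was Pparg, the receptor that drives fat storage, at 11.8, 11.0, 11.6 and 11.5 CPM at 3.0 and 17.9, 19.2, 21.1 and 22.8 CPM at 6.0 mg/kg-day (log2 fold change 0.82, SE 0.13, adjusted p = 0.00286), whose 3.0 mice differed little from each other. The other was Mogat1, a monoacylglycerol acyltransferase and PPARG target, at 1.73, 2.31, 1.77 and 2.24 CPM at 3.0 and 5.97, 5.65, 3.69 and 5.78 CPM at 6.0 mg/kg-day (adjusted p = 0.0206).

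None of 26 cholesterol synthesis genes passed (median 0.18, and 0.047 without library 23, where 1 fell). At an unadjusted p under 0.05, 2 of them were higher and 1 was lower, beside 7.71% and 7.46% of all genes. Of 33 genes of coenzyme A and thioesterases 3 rose and 1 fell; those that rose were Vnn1, Acot1 and Acot2, and the phosphodiesterase Enpp1 fell, with a change of -0.55 (adjusted p = 0.0423). Without library 22 the numbers that rose were 3 of the omega-oxidation genes, 3 of the peroxisomal, 2 of the mitochondrial, 3 of the other PPARA targets and 1 of the lipogenesis genes. With the term for the 5 libraries apart they were 6, 12, 7, 9 and 6, with 2, 2, 0, 2 and 1 falls. Cyp4a14, Eci2, Acadm, Cd36, Mogat1 and Enpp1 missed the threshold in 1 or more of the 8 fits that each left out 1 mouse, with adjusted p of up to 0.18 without library 17, 0.167 without library 22, 0.163 without library 18, 0.0928 without library 24, 0.0888 without library 21, 0.0564 without library 20 and 0.0534 without library 19.

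Genes of mitosis and cytokinesis were higher at 6.0 than at 3.0 mg/kg-day, and 15 of 87 tested members rose while 0 fell. The list's median change was 0.85, beside 0.0045 for all genes. At an unadjusted p under 0.05, 71 of the 87 were higher, beside 7.71% of all genes. The 15 that rose covered spindle motors (Kif4, Kif11, Kif20a, Kif2c), cyclins (Ccna2, Ccnb2), regulators of chromosome separation (Cdc20, Pttg1, Birc5), chromosome structure (Top2a, Ncapg), spindle assembly (Tpx2, Prc1), the kinase Melk and Cdca3. Their changes lay between 0.87 and 1.55. Summed over the 87 genes, the level was 613, 705, 891 and 885 CPM at 3.0 and 969, 1578, 1105 and 1203 CPM at 6.0 mg/kg-day. Every 6.0 mouse was above every 3.0 mouse, and library 22 was highest.

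Top2a, the topoisomerase that untangles chromosomes before they separate, stood at 11.8, 16.1, 19.4 and 23.2 CPM at 3.0 and 28.3, 106, 32.8 and 27.4 CPM at 6.0 mg/kg-day (log2 fold change 1.46, SE 0.33, adjusted p = 0.0243). Library 22 was more than 3 times the level of any other mouse, and the other 6.0 mice were above all 3.0 mice. Kif11, the motor that pushes spindle poles apart, stood at 3.77, 5.33, 7.70 and 6.10 CPM at 3.0 and 11.3, 26.4, 14.3 and 8.54 CPM at 6.0 mg/kg-day (log2 fold change 1.40, SE 0.28, adjusted p = 0.0104). Ccnb2, a mitotic cyclin, stood at 5.01, 3.67, 5.41 and 7.11 CPM at 3.0 and 10.2, 13.9, 8.06 and 14.7 CPM at 6.0 mg/kg-day (log2 fold change 1.14, SE 0.23, adjusted p = 0.0109), and here library 24 was highest. Cdc20, the activator of the anaphase-promoting complex, stood at 3.29, 3.61, 4.53 and 4.31 CPM at 3.0 and 6.90, 8.42, 5.82 and 11.6 CPM at 6.0 mg/kg-day (log2 fold change 1.05, SE 0.23, adjusted p = 0.0161). Mki67, a marker of cycling cells, stood at 7.98, 12.6, 19.0 and 18.7 CPM at 3.0 and 19.5, 47.6, 25.1 and 23.7 CPM at 6.0 mg/kg-day (adjusted p = 0.0699), and Cdk1, the mitotic kinase, at 6.52, 8.83, 7.23 and 9.63 CPM at 3.0 and 18.0, 25.6, 7.78 and 14.7 CPM at 6.0 mg/kg-day (adjusted p = 0.0571). The groups of Mki67 did not overlap, those of Cdk1 did, and both changes missed the threshold.

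Library 22 also stood out in the list of T and NK cell markers, in most of its T cell genes. Their sum over 11 tested markers was 211 CPM in library 22 and between 6.00 and 23.8 CPM in the other 19 libraries. Lck was 87.7, Trbc2 42.0, Thy1 30.8 and Cd3g 14.1 CPM in library 22. The CD8 chain Cd8b1 was 7.61 CPM there and at most 0.864 CPM in the other 19 libraries. The other chain, Cd8a, was 0.252 CPM in library 22, within the range of the other mice. Cd4 was 2.97 CPM in library 22, above every other mouse of the groups compared (0.808 to 1.67 CPM). It was within the range of all 20 mice only through other doses, with 3.43 CPM in control library 3. Of the NK and cytotoxic cell genes, Nkg7, Gzmb, Klrb1c and Ncr1 were 0.252, 0.302, 0.202 and 0.655 CPM in library 22. These 4 levels lay within the range of the other 19 libraries. Gzma was 6.00 CPM in library 22 and at most 0.899 CPM in the other 19. Cd8a, Cd8b1, Nkg7, Gzmb and Klrb1c were not among the 11 tested markers. None of the 11 was at 0 in all 8 mice. The mitosis genes were highest of the 8 mice in library 22 for 67 of the 87, and in 25 library 22 exceeded 2 times the mean of the other 3 mice at 6.0. Without library 22, 0 mitosis genes passed, the list's median was 0.62, and the mean of the other 3 mice was above the 3.0 mean in 86 of the 87. With the term for the 5 libraries apart 51 rose, and without those libraries 49 rose. The part of T and NK cells in the rise was not tested.

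All 15 missed the threshold without library 17 (adjusted p 0.0515 to 0.167) and without library 22 (0.051 to 0.269). Without library 18 it was 14 of them, without library 24 it was 7, without library 19 it was 5 and without library 20 it was 3. In the fit without library 22 the changes of Top2a, Ccna2, Kif2c and Ncapg were 0.74, 0.59, 0.69 and 0.67.

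**Figure D3:**
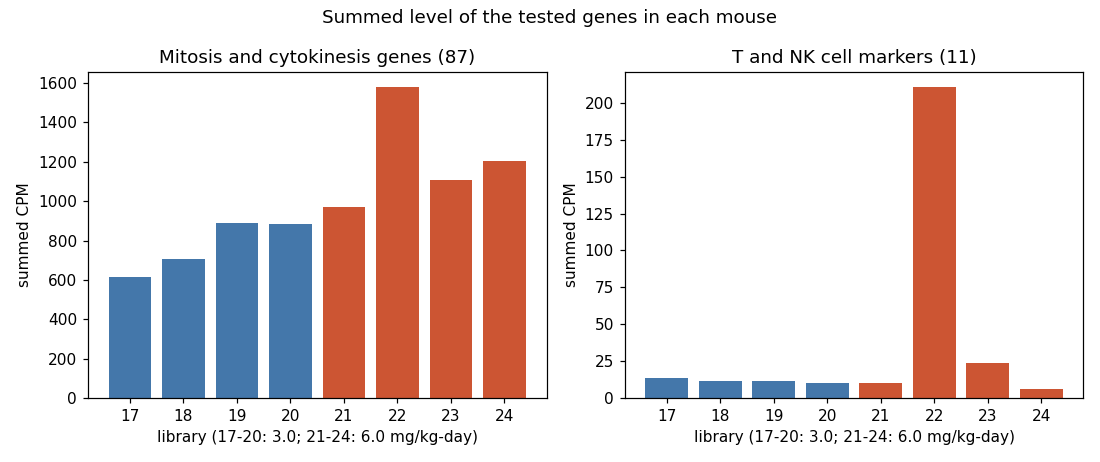
Summed CPM of the 87 tested mitosis and cytokinesis genes (left) and of the 11 tested T and NK cell markers (right) in each of the 8 libraries, 17 to 20 at 3.0 and 21 to 24 at 6.0 mg/kg-day. Mitosis sums are 613 to 891 CPM at 3.0 and 969 to 1578 CPM at 6.0, and library 22 alone is high in the T and NK cell sum, at 211 CPM.

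Because Top2a and Kif11 were the mitosis genes among the 15 largest rises with a mean of 10 CPM or more and no overlap, the 150 bases before their starts are shown, from RefSeq on GRCm38.p6. Top2a is at chr11:99024190-99024339 on the minus strand and Kif11 at chr19:37376232-37376381 on the plus strand. The capitals mark TTCAAA, the reverse complement of TTTGAA, the letters of the cell cycle homology region (CHR) found in promoters of many mitotic genes.
Top2a: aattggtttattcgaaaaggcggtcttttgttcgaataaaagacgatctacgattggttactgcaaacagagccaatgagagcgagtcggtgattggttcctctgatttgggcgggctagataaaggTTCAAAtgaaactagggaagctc
Kif11: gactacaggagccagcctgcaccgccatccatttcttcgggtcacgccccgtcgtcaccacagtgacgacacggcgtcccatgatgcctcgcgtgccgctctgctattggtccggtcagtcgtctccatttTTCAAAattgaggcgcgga
In Top2a the letters lie 23 to 18 bases and in Kif11 19 to 14 bases before the start, and 4 and 1 matches to CCAAT lie further upstream. Neither stretch overlaps a GENCODE exon. On either strand TTTGAA occurred in 9.07% of the 32851 windows and in 722 of 10190 tested genes with a window (7.09%). Among the mitosis and cytokinesis genes it occurred in 23 of the 71 with a window (32.4%), and in 6 of the 12 with a window that rose. CCAAT occurred in 24.5% of the windows, in 31.9% of the tested genes with a window and in 64.8% of the 71 mitosis genes. It occurred in 34.9% of all genes with a window that rose and in 38.4% of those that fell. The Kif11 window also holds GCGTG, 108 to 104 and 60 to 56 bases before the start. The letters were looked for as a description and a match is not a binding site.

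Of 55 genes of DNA replication and S phase 1 rose and 0 fell (median 0.46). At an unadjusted p under 0.05, 25 of the 55 were higher, beside 7.71% of all genes. The sum over the 55 genes was 393 to 503 CPM at 3.0 and 528 to 753 CPM at 6.0 mg/kg-day, without overlap. The member that rose was Ccne1, the cyclin of the entry into S phase, at 0.647, 0.889, 0.885 and 1.51 CPM at 3.0 and 1.68, 2.52, 2.30 and 2.48 CPM at 6.0 mg/kg-day (log2 fold change 1.19, SE 0.29, adjusted p = 0.0372). Among 30 genes of G1 cyclins, growth factors and early growth response 1 rose and 1 fell. Jun, an immediate early transcription factor, stood at 5.93, 9.36, 9.84 and 11.5 CPM at 3.0 and 12.4, 17.3, 17.9 and 21.5 CPM at 6.0 mg/kg-day (log2 fold change 0.92, SE 0.19, adjusted p = 0.0122), and Egfr, the receptor of epidermal growth factor, fell to between 30.1 and 56.7 CPM from between 67.3 and 118 CPM (log2 fold change -1.12, SE 0.27, adjusted p = 0.0303). Ccnd1, the G1 cyclin, overlapped at 34.3, 34.6, 68.0 and 59.9 CPM at 3.0 and 46.8, 36.2, 84.5 and 65.4 CPM at 6.0 mg/kg-day (adjusted p = 0.703). Of 30 p53 targets 1 rose, the stress cytokine Gdf15, at 9.65, 8.35, 13.0 and 14.0 CPM at 3.0 and 15.4, 20.9, 16.2 and 23.2 CPM at 6.0 mg/kg-day (log2 fold change 0.75, SE 0.18, adjusted p = 0.0343). Cdkn1a, the p53-induced cell cycle inhibitor, overlapped (adjusted p = 0.352). Without library 22 the S phase and p53 lists had 0 genes passing. Ccne1, Jun, Gdf15 and Egfr missed the threshold in 1 or more of the 8 fits that each left out 1 mouse, with adjusted p of up to 0.148 without library 17, 0.137 without library 22, 0.131 without library 18, 0.0961 without library 24 and 0.0837 without library 19.

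Growth hormone signalling genes were lower at 6.0 mg/kg-day, with 6 of 17 tested members falling and 0 rising (median -0.51). Igf1, the main hormone made by liver under growth hormone, stood at 588, 613, 623 and 514 CPM at 3.0 and 466, 289.5, 297 and 274 CPM at 6.0 mg/kg-day (log2 fold change -0.82, SE 0.16, adjusted p = 0.00997), with library 21 nearest to the 3.0 mice. Igfals, the subunit that holds IGF in the circulation, stood at 112, 114, 92.1 and 72.3 CPM at 3.0 and 53.4, 31.0, 37.8 and 47.4 CPM at 6.0 mg/kg-day (log2 fold change -1.20, SE 0.16, adjusted p = 0.00091). The prolactin receptor Prlr stood at 424, 410.4, 358 and 325 CPM at 3.0 and 256, 189.6, 171 and 187 CPM at 6.0 mg/kg-day (log2 fold change -0.92, SE 0.13, adjusted p = 0.00126). All 3 genes were lower in every 6.0 mouse than in any 3.0 mouse. Stat5b, the transcription factor of the pathway, had a change of -0.50 (adjusted p = 0.0204), the IGF binding protein Igfbp4 of -0.77 (adjusted p = 0.0459) with overlapping groups, and Cux2, a female-specific repressor, of -1.73 (adjusted p = 0.0456). Socs2, the feedback inhibitor of the pathway, overlapped at 9.87, 13.1, 9.47 and 4.2 CPM at 3.0 and 8.95, 9.88, 4.90 and 3.69 CPM at 6.0 mg/kg-day (adjusted p = 0.635).

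Of 41 tested female-biased genes 11 fell and 3 rose, with a median of -0.39. Cyp2c69, a female-predominant P450, had the largest fall among genes with a mean of 10 CPM or more and no overlap, at 58.2, 73.2, 42.9 and 19.0 CPM at 3.0 and 17.2, 8.97, 11.0 and 5.89 CPM at 6.0 mg/kg-day (log2 fold change -2.17, SE 0.39, adjusted p = 0.00562). Libraries 20 and 21 were close, at 19.0 and 17.2 CPM, without overlap. Cyp2c40, its close relative, stood at 171, 193, 127 and 96.1 CPM at 3.0 and 63.8, 40.3, 23.0 and 24.6 CPM at 6.0 mg/kg-day (log2 fold change -1.95, SE 0.31, adjusted p = 0.00286), and counts of these 2 genes could be split between them. A1bg, a plasma glycoprotein that is higher in females, stood at 22.9, 24.8, 8.12 and 9.52 CPM at 3.0 and 8.14, 3.02, 1.56 and 3.36 CPM at 6.0 mg/kg-day (adjusted p = 0.0318), with overlap between libraries 19 and 21. The rises were Akr1b7, Cd36 and Sult2a7, and other falls included those of Cux2, Prlr, Cyp2c39, Cyp2c68, Fmo2, Slc22a26 and Tox.

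The male-biased list (37 tested) had 4 rises and 2 falls, with a median of -0.09. The median was 0.05 without library 22 and 0.12 without the 5 libraries apart. Mup20, the male urinary pheromone darcin, stood at 32.8, 46.3, 41.7 and 41.0 CPM at 3.0 and 102, 79.7, 105 and 93.3 CPM at 6.0 mg/kg-day (log2 fold change 1.23, SE 0.16, adjusted p = 0.000624). No mouse of either group overlapped, although reads may be shared with the other Mup genes. Cyp4a12a, Cyp4a12b and Gstp1 also rose. The members that fell were the carboxylesterase Ces3b, with a change of -1.17 (adjusted p = 0.00472), and the organic anion transporter Slco1a1, at 162, 238, 238 and 123 CPM at 3.0 and 133, 41.2, 73.1 and 106 CPM at 6.0 mg/kg-day (adjusted p = 0.0498), whose groups overlapped. Without library 22, 2 growth hormone genes and 7 female-biased genes fell. With the term for the 5 libraries apart these numbers were 9 and 15. The mice were all female, so these lists describe genes and not a difference in sex. Igf1, Stat5b, Cux2, Igfbp4, Cyp2c68, Cyp2c39, Fmo2, A1bg, Slc22a26, Tox, Slco1a1, Cd36 and Sult2a7 missed the threshold in 1 or more of the 8 fits that each left out 1 mouse, with adjusted p of up to 0.191 without library 22, 0.184 without library 17, 0.157 without library 18, 0.113 without library 19, 0.0955 without library 24, 0.0693 without library 21, 0.0581 without library 23 and 0.0562 without library 20.

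Genes of both ends of the liver lobule were among those that fell. Of 31 pericentral genes 6 fell and 0 rose (median -0.36), and of 32 periportal genes 7 fell and 0 rose (median -0.23). Slc1a2, a glutamate transporter of the innermost pericentral hepatocytes, stood at 137, 101, 77.3 and 58.7 CPM at 3.0 and 46.5, 27.0, 29.9 and 27.4 CPM at 6.0 mg/kg-day (log2 fold change -1.51, SE 0.21, adjusted p = 0.00117). Lgr5, a receptor that strengthens Wnt signalling, stood at 7.44, 7.29, 4.89 and 4.03 CPM at 3.0 and 2.80, 1.61, 2.30 and 2.53 CPM at 6.0 mg/kg-day (log2 fold change -1.36, SE 0.24, adjusted p = 0.00511). Axin2, a feedback inhibitor of Wnt signalling and a standard target gene, stood at 2.80, 3.08, 3.80 and 4.2 CPM at 3.0 and 1.68, 1.31, 1.61 and 1.93 CPM at 6.0 mg/kg-day (log2 fold change -1.09, SE 0.20, adjusted p = 0.00601). Neither Slc1a2, Lgr5 nor Axin2 overlapped between doses. Notum, another secreted Wnt inhibitor, had a change of -0.85 (adjusted p = 0.0248) and Gulo, which completes vitamin C synthesis, of -1.06 (adjusted p = 0.0121). The dicarboxylate transporter Slc13a3 had a change of -0.99 (adjusted p = 0.024). Glul, the glutamine synthetase that marks the same hepatocytes, overlapped at 484, 504, 288 and 308 CPM at 3.0 and 281, 215, 172 and 362 CPM at 6.0 mg/kg-day (adjusted p = 0.166), with library 24 above libraries 19 and 20.

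On the periportal side Gls2, the liver glutaminase, stood at 401, 328, 234 and 236 CPM at 3.0 and 183, 142, 186 and 154 CPM at 6.0 mg/kg-day (log2 fold change -0.85, SE 0.16, adjusted p = 0.00733). Pigr, which carries immunoglobulin A into bile, stood at 1520.2, 1488, 1089 and 1396 CPM at 3.0 and 981, 619, 731 and 619 CPM at 6.0 mg/kg-day (log2 fold change -0.90, SE 0.14, adjusted p = 0.00286). Hal, the first enzyme of histidine breakdown, stood at 344, 347, 266 and 336 CPM at 3.0 and 253, 169, 188 and 185 CPM at 6.0 mg/kg-day (log2 fold change -0.70, SE 0.14, adjusted p = 0.0101), with library 19 lowest of the 3.0 mice and still above library 21. The protease Ctsc had a change of -0.81 (adjusted p = 0.0082), the phospholyase Etnppl of -0.65 (adjusted p = 0.0424), and glucose-6-phosphatase, G6pc, of -0.81 (adjusted p = 0.0368). Igf1 is also a member of this list. Pck1, the cytosolic enzyme of glucose production, overlapped (adjusted p = 0.207). Without library 22 each list had 3 falls, and with the term for the 5 libraries apart 13 pericentral and 12 periportal genes fell while 2 and 1 rose. Notum, Gulo, Slc13a3, Hal, G6pc, Etnppl and Igf1 missed the threshold in 1 or more of the 8 fits that each left out 1 mouse, with adjusted p of up to 0.156 without library 18, 0.146 without library 22, 0.142 without library 17, 0.103 without library 24, 0.0806 without library 19, 0.0609 without library 20 and 0.0518 without library 23.

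Secreted plasma proteins fell in part. Of 31 complement genes 3 fell, of 30 coagulation genes 2 and of 36 plasma carriers and protease inhibitors 7, and 0 rose in these lists (medians -0.25, -0.30 and -0.24). C9, the last component of the membrane attack complex, stood at 140.4, 126, 75.6 and 66.9 CPM at 3.0 and 65.0, 35.9, 41.9 and 37.8 CPM at 6.0 mg/kg-day (log2 fold change -1.18, SE 0.23, adjusted p = 0.00742), with libraries 20 and 21 nearly equal. C4b, of the classical pathway, stood at 887, 859.9, 842 and 696 CPM at 3.0 and 455, 286, 587 and 365 CPM at 6.0 mg/kg-day (log2 fold change -0.96, SE 0.17, adjusted p = 0.00511). F11, coagulation factor XI, had a change of -0.80 (adjusted p = 0.00706) and F5, factor V, of -0.66 (adjusted p = 0.0424). Lrg1, a glycoprotein of inflammation, stood at 168, 154, 64.5 and 81.6 CPM at 3.0 and 57.7, 34.1, 31.6 and 46.5 CPM at 6.0 mg/kg-day (log2 fold change -1.46, SE 0.30, adjusted p = 0.0113).

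The protease inhibitors Mug1, Pzp and Serpina3k, which belong to families of similar genes, and the inter-alpha-trypsin heavy chains Itih1, Itih3 and Itih4 had falls with adjusted p between 0.0188 and 0.0423. Serpina3k stood at 7646, 7689, 9995 and 5582 CPM at 3.0 and 5123, 3031, 3395 and 4221 CPM at 6.0 mg/kg-day. Alb overlapped at 94907, 100708, 69219 and 86759.6 CPM at 3.0 and 88901, 80653, 63942 and 61697 CPM at 6.0 mg/kg-day (adjusted p = 0.558). Saa1, the acute phase protein, was high in library 17 at 121 CPM and between 11.2 and 52.6 CPM in the other 7 mice (adjusted p = 0.122). Itih4 was also the 1 gene of the 25 acute phase genes to pass. The receptor Lrp1 had a change of -0.92 (adjusted p = 0.00975) and fibronectin, Fn1, of -0.92 (adjusted p = 0.00719), the 1 gene of 37 matrix and fibrosis genes to pass. Without library 22 the falls were 2 complement genes, 1 coagulation gene and 0 plasma carriers, and with the term for the 5 libraries apart 9, 11 and 11. F5, Lrg1, Itih4, Itih1, Itih3, Mug1, Pzp and Serpina3k missed the threshold in 1 or more of the 8 fits that each left out 1 mouse, with adjusted p of up to 0.175 without library 22, 0.162 without library 17, 0.129 without library 18, 0.108 without library 24, 0.103 without library 19, 0.0758 without library 20, 0.0524 without library 23 and 0.0511 without library 21.

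Membrane transporters of the hepatocyte had 7 falls and 2 rises among 29 tested (median -0.31), beside 1.06% and 1.03% of all genes. Slc22a7, an organic anion transporter of the sinusoidal face, stood at 17.9, 21.1, 11.6 and 9.40 CPM at 3.0 and 5.97, 2.97, 3.51 and 2.86 CPM at 6.0 mg/kg-day (log2 fold change -1.97, SE 0.25, adjusted p = 0.000624). Slc30a10, which exports manganese, stood at 65.4, 70.6, 72.5 and 73.0 CPM at 3.0 and 52.8, 39.0, 44.1 and 37.9 CPM at 6.0 mg/kg-day (log2 fold change -0.70, SE 0.12, adjusted p = 0.00515), with the 3.0 mice close together. Slc39a14, an importer of zinc and manganese, had a change of -0.57 (adjusted p = 0.0229), and Slc6a12, a betaine transporter, of -0.54 (adjusted p = 0.013). Slc16a10, an aromatic amino acid transporter, also fell. The rises were Abcg2, which pumps conjugates and drugs into bile (0.65, adjusted p = 0.00997), and Slc39a5, a zinc importer (0.77, adjusted p = 0.0271). Slc25a25, a mitochondrial carrier of ATP-Mg and phosphate, stood at 77.7, 77.1, 88.2 and 60.7 CPM at 3.0 and 46.4, 28.3, 37.0 and 30.8 CPM at 6.0 mg/kg-day (log2 fold change -1.09, SE 0.21, adjusted p = 0.00733).

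Of 59 genes of amino acid breakdown 4 fell and 0 rose (median -0.18). Besides Hal and Gls2 these were Bhmt, which remethylates homocysteine (-0.79, adjusted p = 0.0329), and Prodh, the proline dehydrogenase, at 138, 133, 60.1 and 76.7 CPM at 3.0 and 60.4, 52.4, 28.9 and 48.9 CPM at 6.0 mg/kg-day (adjusted p = 0.0299), both with overlapping groups. In glucose metabolism (37 tested) 1 rose and 2 fell. Gbe1, the glycogen branching enzyme, stood at 162, 167, 188 and 206 CPM at 3.0 and 242, 301, 296 and 281 CPM at 6.0 mg/kg-day (log2 fold change 0.63, SE 0.12, adjusted p = 0.00722), and Ppp1r3c, which brings phosphatase 1 to glycogen, at 58.9, 64.4, 65.5 and 55.7 CPM at 3.0 and 45.0, 31.4, 39.1 and 31.8 CPM at 6.0 mg/kg-day (log2 fold change -0.73, SE 0.13, adjusted p = 0.00559). Neither overlapped between doses. Rdh9, a retinol dehydrogenase family member, stood at 99.0, 81.9, 49.2 and 42.8 CPM at 3.0 and 34.6, 22.4, 16.7 and 17.2 CPM at 6.0 mg/kg-day (log2 fold change -1.59, SE 0.24, adjusted p = 0.00248). The transcribed pseudogene 9030619P08Rik stood at 29.4, 29.2, 13.0 and 17.6 CPM at 3.0 and 11.9, 8.62, 2.07 and 5.34 CPM at 6.0 mg/kg-day (adjusted p = 0.0123). Cyp7a1, the rate-limiting enzyme of bile acid synthesis, overlapped (adjusted p = 0.861), and Slco1a1 was the 1 member of 25 bile acid genes to pass. Without library 22 there were 4 falls and 1 rise among the transporters and 1 fall in amino acid breakdown, and with the term for the 5 libraries apart 11 and 2, and 15 with 1 rise. Slc16a10, Slc39a14, Slc6a12, Abcg2, Slc39a5, Bhmt, Prodh and 9030619P08Rik missed the threshold in 1 or more of the 8 fits that each left out 1 mouse, with adjusted p of up to 0.135 without library 17, 0.12 without library 18, 0.114 without library 22, 0.0868 without library 24, 0.0728 without library 19, 0.0651 without library 20 and 0.0522 without library 21.

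**Figure D4:**
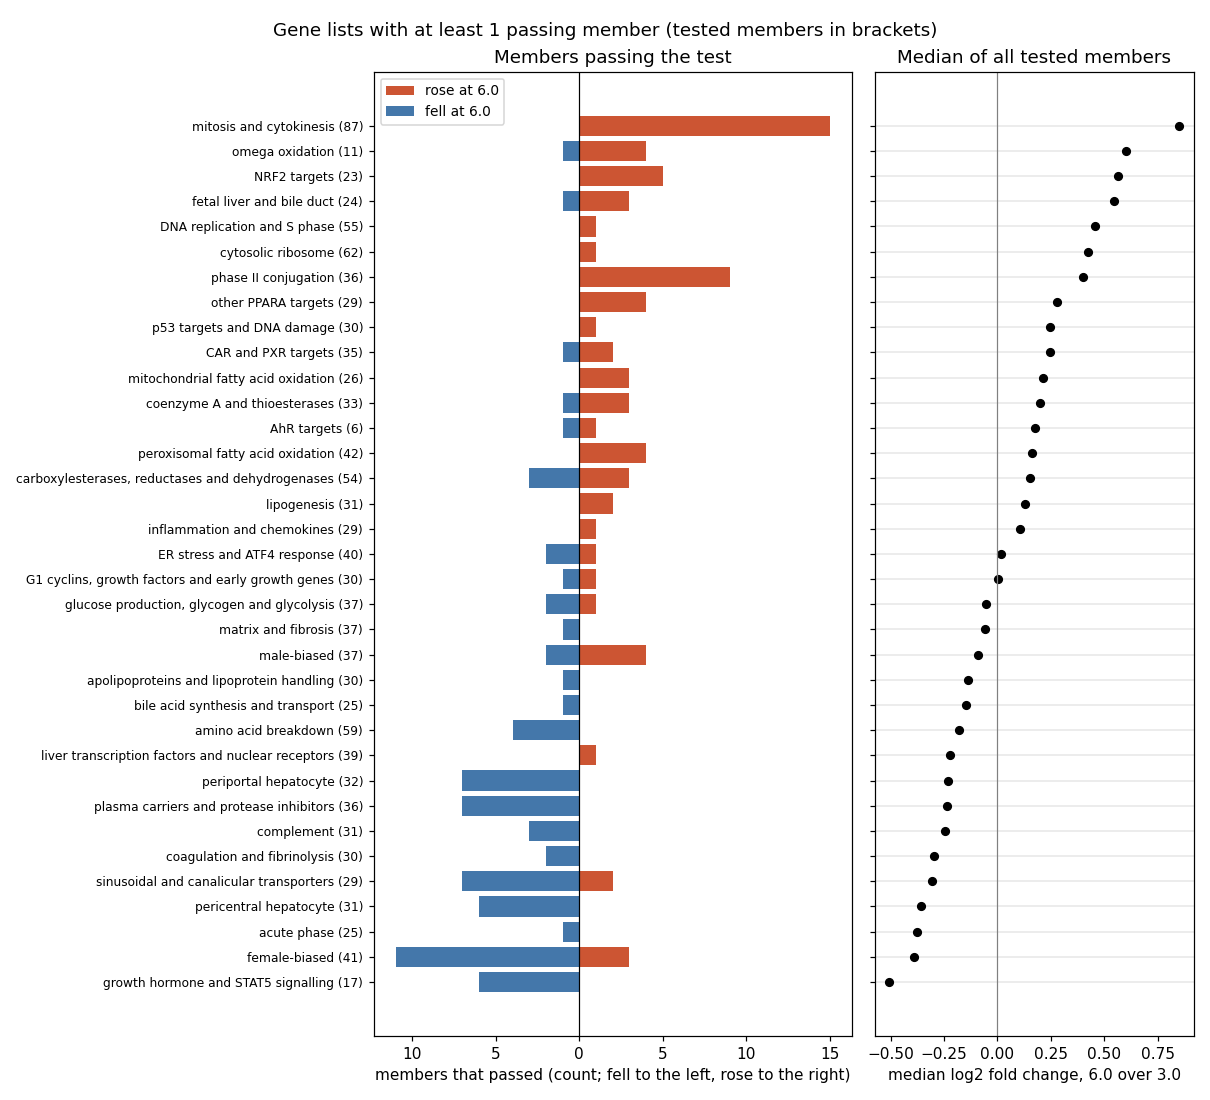
Number of genes that rose and fell at 6.0 against 3.0 mg/kg-day in each gene list with a passing member (left), and the list's median log2 fold change (right). Mitosis and cytokinesis shows 15 rises and phase II conjugation 9, and the female-biased list shows 11 falls beside 3 rises.

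Fetal liver and bile duct genes (24 tested) had 3 rises and 1 fall, with a median of 0.55. Ly6d, a surface protein, stood at 1.19, 1.36, 0.833 and 2.02 CPM at 3.0 and 4.91, 21.6, 10.2 and 5.78 CPM at 6.0 mg/kg-day (log2 fold change 2.98, SE 0.44, adjusted p = 0.00182). The calcium-binding protein S100a6 rose by 1.42 (adjusted p = 0.0202) with overlap, the intermediate filament vimentin, Vim, by 0.63 (adjusted p = 0.0243), and Prom1, a membrane protein of duct and progenitor cells, had a change of -1.04 (adjusted p = 0.0498) with overlap. Afp, the fetal albumin, was lower in all 6.0 mice at 4.64, 4.27, 4.32 and 4.31 CPM at 3.0 and 3.29, 3.58, 2.53 and 2.92 CPM at 6.0 mg/kg-day, but missed the threshold (adjusted p = 0.0991). Of 29 genes of inflammation and chemokines 1 passed, the chemokine Ccl9, at 119, 115, 139 and 138 CPM at 3.0 and 192, 222, 199 and 181 CPM at 6.0 mg/kg-day (log2 fold change 0.64, SE 0.10, adjusted p = 0.00248).

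In the ATF4 and ER stress list (40 tested) 1 rose and 2 fell. Psat1, an enzyme of serine synthesis, stood at 0.431, 0.770, 0.677 and 0.616 CPM at 3.0 and 1.43, 12.1, 2.13 and 1.27 CPM at 6.0 mg/kg-day (log2 fold change 2.77, adjusted p = 0.0202), and without library 22 its change was 1.36 (adjusted p = 0.145). The amino acid transporter chain Slc3a2 and the glutathione-degrading enzyme Chac1 had changes of -0.58 (adjusted p = 0.0286) and -1.77 (adjusted p = 0.0483). Of 62 cytosolic ribosome genes 1 rose, Rplp1 (0.63, adjusted p = 0.0435), and the median was 0.42. Without library 22, 0 genes of the ER stress and ribosome lists passed and the ribosome median was 0.20. Without library 23, 12 ribosome genes rose and the ribosome median was 0.61. With the term for the 5 libraries apart 10 ribosome genes rose and 0 fell, and the ER stress list had 5 rises and 4 falls. S100a6, Vim, Prom1, Psat1, Chac1, Slc3a2 and Rplp1 missed the threshold in 1 or more of the 8 fits that each left out 1 mouse, with adjusted p of up to 0.191 without library 22, 0.163 without library 17, 0.139 without library 18, 0.116 without library 24, 0.103 without library 21, 0.0961 without library 19, 0.0923 without library 20 and 0.0621 without library 23.

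Lists with 0 genes passing were the proteasome (37 tested, median 0.30, 10 higher at an unadjusted p under 0.05), ribosome biogenesis (43, median 0.25, 13 higher), the respiratory chain (50, median 0.19), heat shock and folding (27), the interferon response (42, median -0.12), the circadian clock (23), heme and iron (29), lysosome and autophagy (32) and cytoskeleton and adhesion (34). The medians of the proteasome, ribosome biogenesis and the respiratory chain were 0.19, 0.16 and 0.10 without library 22, and that of the respiratory chain was 0.06 without library 19 and 0.32 without library 23. That of the interferon response was -0.05 without library 17. The share of all genes higher at an unadjusted p under 0.05 was 7.71%. A gene that missed the threshold is not shown to be equal between the doses.

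The levels of the same genes in the controls put the step from 3.0 to 6.0 beside the step from control to 3.0 mg/kg-day. These comparisons share mice, so their values are given side by side only. Of the genes tested 4.61% passed for 3.0 against control and 22.4% for 6.0 against control. Cyp2b10 had a control mean of 86.9 ± 23.6 CPM (SD, n = 4), a change of 4.19 (adjusted p = 8.34e-09) from control to 3.0 and of 0.51 (adjusted p = 0.316) from 3.0 to 6.0. Gstm3, at 6.11 ± 1.57 CPM in controls, changed by 4.95 (adjusted p = 9.45e-09) and then by 1.46 (adjusted p = 0.00722). Top2a, at 2.96 ± 0.253 CPM in controls, changed by 2.57 (adjusted p = 0.000155) and then by 1.46 (adjusted p = 0.0243). Igf1, at 1105 ± 169.6 CPM in controls, changed by -0.92 (adjusted p = 0.00135) and then by -0.82 (adjusted p = 0.00997).

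Some genes passed from 3.0 to 6.0 and missed the threshold between control and 3.0. Cyp1a1 had a control mean of 1.09 ± 0.338 CPM and a change of 0.55 (adjusted p = 0.879) from control to 3.0. Vnn1, at 38.0 ± 8.65 CPM in controls, had a change of 0.47 (adjusted p = 0.414). Pparg, at 9.85 ± 0.793 CPM, had a change of 0.22 (adjusted p = 0.507), Eci2, at 140.4 ± 15.7 CPM, of 0.00 (adjusted p = 0.994), and Hal, at 336 ± 9.77 CPM, of -0.06 (adjusted p = 0.922). Lrg1, at 149 ± 42.8 CPM, had a change of -0.35 (adjusted p = 0.695). Slc30a10, at 62.6 ± 5.03 CPM, had a change of 0.17 (adjusted p = 0.624), with the opposite sign to its fall at 6.0. Whether the 2 steps differ in size was not tested, and a control-to-3.0 change that missed the threshold is not shown to be 0. Lrg1, Hal and Eci2 missed the threshold in 1 or more of the 8 fits that each left out 1 mouse, with adjusted p of up to 0.0932 without library 22, 0.0918 without library 18, 0.0899 without library 17, 0.0659 without library 24, 0.0564 without library 20, 0.0547 without library 21 and 0.0534 without library 19.

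**Figure D5:**
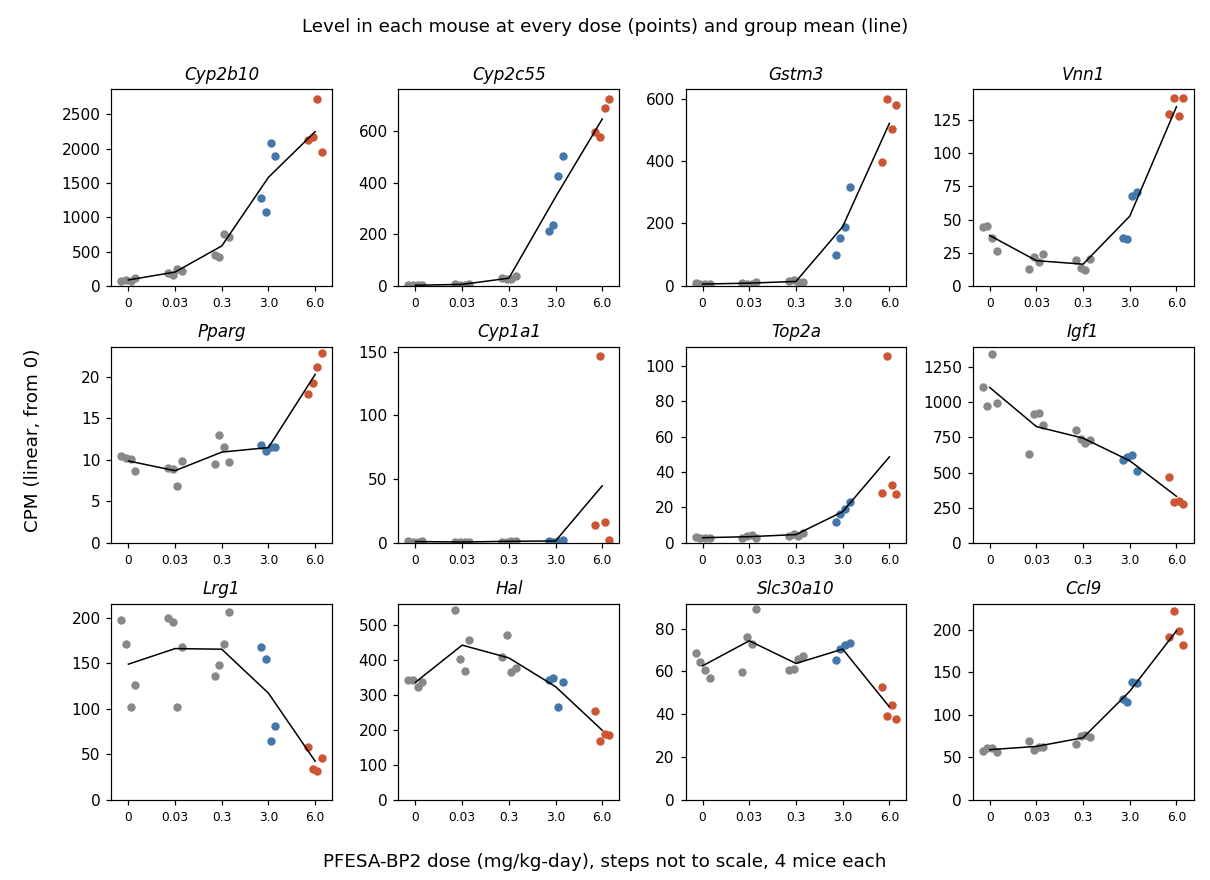
Level of 12 genes in each of the 20 mice over the 5 doses, in CPM on a linear axis, with the mean of each dose group. Cyp2b10 and Gstm3 are already far above the control level at 3.0 mg/kg-day, while Pparg is near it there and higher at 6.0 mg/kg-day. Vnn1 at 3.0 mg/kg-day is near the control level in libraries 17 and 18 and above it in libraries 19 and 20. At 6.0 mg/kg-day Vnn1 is higher than in any of these.

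Hepatocyte markers were abundant in every library. Their sum over 15 tested genes was 116226 to 161853 CPM at 3.0 and 103323 to 139196 CPM at 6.0 mg/kg-day, with a median change of -0.34 and 0 genes passing. Kupffer cell sums were 611 to 674 and 561 to 870.1 CPM, sinusoidal endothelium sums 459 to 508 and 421 to 499.8 CPM, and stellate cell sums 388 to 424 and 286 to 488 CPM. All of these overlapped between doses. Of 11 T and NK cell markers Lck and Trbc2 rose. Lck stood at 2.00, 2.25, 1.35 and 1.40 CPM at 3.0 and 1.68, 87.7, 6.28 and 1.21 CPM at 6.0 mg/kg-day (adjusted p = 0.0333), so that the call rested on library 22, and without it the changes of Lck and Trbc2 were 0.81 (adjusted p = 0.616) and 0.79 (adjusted p = 0.65) and the list's median was -0.03. The neutrophil gene S100a8 rose at 1.08, 1.78, 1.35 and 1.79 CPM at 3.0 and 4.35, 15.0, 3.97 and 4.74 CPM at 6.0 mg/kg-day (log2 fold change 2.23, SE 0.42, adjusted p = 0.00733), and its partner S100a9 overlapped at 0.917, 0.533, 0.416 and 0.280 CPM at 3.0 and 0.373, 7.16, 0.806 and 0.165 CPM at 6.0 mg/kg-day (adjusted p = 0.193). Of 21 sinusoidal endothelium genes Lyve1 (1.08, adjusted p = 0.0183) and Pecam1 (0.46, adjusted p = 0.0456) rose, and of 17 stellate cell genes Vipr1 (-0.62, adjusted p = 0.0256) and Reln (-0.58, adjusted p = 0.0498) fell. The endothelium list as a whole did not follow its 2 rises, with 14 genes lower, 7 higher and a median of -0.12. In the stellate cell list 14 genes were lower and 3 higher (median -0.25). Lck, Trbc2, Lyve1, Pecam1, Vipr1 and Reln missed the threshold in 1 or more of the 8 fits that each left out 1 mouse, with adjusted p of up to 0.65 without library 22, 0.174 without library 17, 0.129 without library 18, 0.116 without library 24, 0.101 without library 20, 0.1 without library 19 and 0.0693 without library 21.

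Among genes with a mean under 10 CPM, some separated the doses widely. Serpinb1c, a serpin, stood at 0.162, 0.178, 0.625 and 0.560 CPM at 3.0 and 2.49, 3.93, 2.77 and 3.31 CPM at 6.0 mg/kg-day (log2 fold change 3.00, SE 0.49, adjusted p = 0.00346), and the transcript Gm10419 at 0.108, 0.533, 0.833 and 0.168 CPM at 3.0 and 3.23, 1.56, 2.77 and 6.39 CPM at 6.0 mg/kg-day (log2 fold change 3.06, SE 0.57, adjusted p = 0.0122). The glutamate receptor gene Grid1 stood at 0.701, 0.237, 0.416 and 0.616 CPM at 3.0 and 0.187, 0.151, 0.115 and 0.0551 CPM at 6.0 mg/kg-day (adjusted p = 0.0347). In these genes the groups did not overlap, which the rule that took them required, and low counts make the size of each change imprecise. Gm10419 and Grid1 missed the threshold in 1 or more of the 8 fits that each left out 1 mouse, with adjusted p of up to 0.135 without library 17, 0.101 without library 22, 0.0921 without library 24 and 0.0784 without library 20.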

How the data were processed

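Liver RNA of 20 mice was sequenced on an Illumina NextSeq 500, per the labels' protocols. The table the authors deposited holds 22103 rows and 1 column of expected counts per mouse, a unit taken from its values, 58.0% of which are whole. The submitters' processing notes name Partek and GRCm38.p5. The aligner, the counting, its use of strand and the annotation are not given in the sources read here, so overlapping and antisense genes may share counts. The series title speaks of targeted sequencing; a list of targets was not used here. The largest values are rounded in the table, and 21 rows with names in the form of dates are not named.

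Expected counts were rounded to whole numbers, 6906 rows with low counts were left out (filterByExpr) and libraries were scaled with TMM. The quasi-likelihood test of edgeR 4.0.16 in R 4.3.3 was fitted to the 5 group means of all 20 mice (15 residual degrees of freedom, biological coefficient of variation 0.219). Benjamini-Hochberg adjustment ran over all 15197 genes, and every adjusted p is from edgeR unless another tool is named. The SE equals the size of the change over the root of F. DESeq2 1.42.0 and limma-voom (limma 3.58.1) were alternatives.

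Replicates are individual mice, and no pair of libraries agreed within counting noise. The comparison, the 46 process lists and the 14 marker lists were chosen with earlier results of these data known. The rule for named genes took the 15 largest rises and 15 largest falls with a mean of 10 CPM or more and no overlap. It also took the 3 smallest adjusted p of each list, set sentinels, and the 5 largest rises and falls of low genes without overlap. For genes taken by the size of their change, the lack of overlap follows from the rule. The text names part of the genes that the rule took, and it also names members of lists that passed. Other genes were chosen after their values were seen. Results for some genes that the rule names are not reported here. Coordinates are from GENCODE M21, matched by symbol for 14710 tested rows (96.8%), and promoter windows are from RefSeq on GRCm38.p6.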

Additional observations from a re-analysis of the deposited data

Results flagged for a closer look

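Of 378 groups of 4 mice examined, 25 held 1 mouse whose gap to its nearest neighbour, as a share of the group's range, was above Dixon's critical value for 4 values, 21 of them high and 4 low. By chance about 1 group in 20 is past it, and 1 library can pass in many genes at once. Library 22 at 6.0 mg/kg-day was high in Cyp1a1 (147 CPM, others 2.15 to 16.5), Top2a (106 CPM, others 27.4 to 32.8), Ccna2 (30.6 CPM, others 15.6 to 16), Kif2c (9.17 CPM, others 3.98 to 4.57), Aldh3b1 (5.8 CPM, others 4.03 to 4.19), Psat1 (12.1 CPM, others 1.27 to 2.13) and Lck (87.7 CPM, others 1.21 to 6.28). It was also high in Trbc2 (42 CPM, others 0.661 to 5.41), Cd3g (14.1 CPM, others 0.386 to 1.21), S100a8 (15 CPM, others 3.97 to 4.74), S100a9 (7.16 CPM, others 0.165 to 0.806), Marco (2.97 CPM, others 0.311 to 0.576) and T and NK cell markers, summed (211 CPM, others 6 to 23.8). Library 21 at 6.0 mg/kg-day was high in Igf1 (466 CPM, others 274 to 297), Slc1a2 (46.5 CPM, others 27 to 29.9), Etnppl (59.2 CPM, others 39.3 to 42.3), Enpp1 (18.6 CPM, others 12.8 to 13.7) and Avpr1a (22.3 CPM, others 14.5 to 15.5). Library 23 at 6.0 mg/kg-day was high in Cyp4a12b (28.9 CPM, others 4.94 to 5.89). Library 23 at 6.0 mg/kg-day was low in Eci2 (169 CPM, others 206 to 211) and Mogat1 (3.69 CPM, others 5.65 to 5.97). Library 19 at 3.0 mg/kg-day was high in Nfix (48.7 CPM, others 38.6 to 40). Library 19 at 3.0 mg/kg-day was low in Hal (266 CPM, others 336 to 347). Library 17 at 3.0 mg/kg-day was high in Afp (4.64 CPM, others 4.27 to 4.32). Library 18 at 3.0 mg/kg-day was low in Gpx2 (0.0592 CPM, others 0.26 to 0.28).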

How the results depend on the processing

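Each choice was changed alone, but fits on fewer libraries also redid the filter and the scaling, so the genes tested changed with them. These numbered 14366 on the 8 libraries, 15371 to 15419 with 1 mouse left out and 15138 without the 5 libraries apart. DESeq2 also brought its own scaling. DESeq2 and limma-voom on the 8 libraries changed the tool and the libraries together. Scaling with RLE size factors, no filter on low counts, a filter of 10 counts in 4 libraries and limma-voom on all 20 mice passed 299, 265, 329 and 367 genes against 318. DESeq2 on all mice passed 658 (355 rose, 303 fell). RLE scaling gave 161 rises and 138 falls and moved the median of all genes to 0.016. Fitted on the 8 libraries, edgeR passed 0 (0 rose, 0 fell). Leaving out each mouse gave between 110 (without library 17) and 969 (without library 23) genes, 52 to 401 rises and 58 to 568 falls, and without library 24 alone the falls were 98. Chosen after seeing the data were a term for libraries 3, 11, 15, 19 and 23 (1400 genes, 700 rose, 700 fell), leaving these out (1476, 689 rose, 787 fell), and DESeq2 (284) and limma-voom (2, 2 rose, 0 fell) on the 8 libraries. S100a9, which did not pass, ranged from -0.26 (without library 22, adjusted p = 0.974) to 2.38 (without library 17) when a mouse was left out. The causes were not tested. No paired analysis was possible because the labels give doses no shared number; the 5 libraries that stood apart are each the third by number in their dose group, and the term for them is given above. Precision is limited by 4 mice a dose, and low counts limit it for genes under 1 CPM.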

Other observations

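Among genes outside the lists, chosen here after their values were seen, the following were lower at 6.0 than at 3.0 mg/kg-day. Of the 39 tested genes in the list of liver transcription factors and nuclear receptors 1 rose, Pparg, and 0 fell (median -0.22, and -0.14 without library 22), while without library 23 there were 7 falls. The vasopressin receptor Avpr1a stood at 30.8, 34.8, 37.3 and 28.5 CPM at 3.0 and 22.3, 15.5, 15.2 and 14.5 CPM at 6.0 mg/kg-day (log2 fold change -0.97, SE 0.15, adjusted p = 0.00286), and the angiotensin receptor Agtr1a had a change of -0.56 (adjusted p = 0.0125). Lifr, the receptor of leukaemia inhibitory factor, stood at 395, 449, 462 and 419 CPM at 3.0 and 346, 232, 275 and 265 CPM at 6.0 mg/kg-day (log2 fold change -0.63, SE 0.11, adjusted p = 0.00559), and Stat3, a transcription factor that acts downstream of it, had a change of -0.58 (adjusted p = 0.0237). The nuclear factors Nfia and Nfix had changes of -0.68 (adjusted p = 0.0202) and -0.96 (adjusted p = 0.0271). None of these overlapped between doses. The secreted phospholipase Gpld1 stood at 308, 288, 219.9 and 256 CPM at 3.0 and 195, 133, 169 and 157 CPM at 6.0 mg/kg-day (log2 fold change -0.71, SE 0.13, adjusted p = 0.00628), the secreted ribonuclease Rnase4 had a change of -1.23 (adjusted p = 0.0347) with overlap, and the adhesion protein Ceacam1 of -0.47 (adjusted p = 0.0294). The retinol dehydrogenase family member Rdh1 had a change of -1.29 (adjusted p = 0.0256).

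Other genes were higher at 6.0 mg/kg-day. The water channel Aqp8 stood at 265, 369.8, 260.0 and 285 CPM at 3.0 and 529, 604, 538 and 423 CPM at 6.0 mg/kg-day (log2 fold change 0.83, SE 0.14, adjusted p = 0.00511). The growth factor Nrg1, a ligand of ERBB receptors, stood at 0.377, 0.474, 1.25 and 1.12 CPM at 3.0 and 1.55, 4.84, 5.13 and 3.86 CPM at 6.0 mg/kg-day (adjusted p = 0.0192), and the prostaglandin E synthase Ptges at 1.67, 2.43, 4.48 and 7.00 CPM at 3.0 and 10.8, 16.2, 8.87 and 10.7 CPM at 6.0 mg/kg-day (adjusted p = 0.0296). Stbd1, which links glycogen to membranes, rose by 0.75 (adjusted p = 0.0237), the pyruvate dehydrogenase subunit Pdha1 by 0.48 (adjusted p = 0.0101) and the sulfotransferase Sult2a5, one of a family of similar genes, by 0.70 (adjusted p = 0.0271). Rnase4, Stat3, Nfia, Nfix, Agtr1a, Rdh1, Nrg1, Ptges, Ceacam1, Stbd1, Pdha1 and Sult2a5 missed the threshold in 1 or more of the 8 fits that each left out 1 mouse, with adjusted p of up to 0.167 without library 17, 0.135 without library 22, 0.119 without library 18, 0.0876 without library 24, 0.0644 without library 19, 0.0619 without library 21 and 0.0607 without library 20.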
